A study of Mus musculus with 52 samples.

Results

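The genes described here are those of the cerebral cavernous malformation (CCM) complex and its best known outputs: the scaffold Pdcd10 (CCM3), its complex partners Krit1 (CCM1) and Ccm2, the membrane receptor Heg1, the kinases Stk24, Stk25 and Stk26, and the transcription factors Klf2 and Klf4. They are 9 of the 20730 genes counted in the series, and all 9 passed the filter on low counts. The members were chosen by measured values, a higher level of Pdcd10 in p53R245W/fl tumours, seen earlier in these same libraries, and the question was whether the other 8 genes shared that rise. Every Pdcd10 value that involves p53R245W/fl is therefore given as a description and carries no test. The series holds bulk RNA-seq of flash-frozen primary mouse osteosarcomas of 3 genotypes. The p53fl/fl group (16 libraries) has a floxed p53 gene on both chromosomes, while p53R172H/fl (19 libraries) and p53R245W/fl (17 libraries) combine 1 floxed allele with the named missense allele. All groups therefore share at least 1 floxed allele, no tumour without a p53 alteration was included, and the driver of recombination, the strain and the age of the mice are not given in the labels.

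As background, KRIT1, CCM2 and PDCD10 form a cytoplasmic complex that is recruited to endothelial cell junctions by the transmembrane protein HEG1. The complex restrains the kinase MEKK3 (gene Map3k3), and when it is lost MEKK3 signals through MEK5, ERK5 and MEF2 factors to raise KLF2 and KLF4, which is the route to vascular malformations in the brain. PDCD10 is also the partner of the germinal centre kinases STK24, STK25 and STK26 and ties them to the STRIPAK complex, an assembly of striatins and the phosphatase PP2A that keeps such kinases dephosphorylated.

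The promoters of Pdcd10, Klf2 and Klf4 are shown because Pdcd10 is the gene the list was built on and the other 2 are its downstream readouts. Each is the 250 bases before the RefSeq transcription start on GRCm38.p6, written 5′ to 3′ on the gene's strand. Capitals mark matches to CTANNNNTAG, a loose form of the MEF2 motif that allows any 4 middle bases and is its own reverse complement. They also mark the GC box GGGCGG on either strand (written CCGCCC where it lies on the other strand). The windows are chr3:75556853-75557102 (minus strand) for Pdcd10, chr8:72318812-72319061 (plus strand) for Klf2 and chr4:55532476-55532725 (minus strand) for Klf4.
Pdcd10: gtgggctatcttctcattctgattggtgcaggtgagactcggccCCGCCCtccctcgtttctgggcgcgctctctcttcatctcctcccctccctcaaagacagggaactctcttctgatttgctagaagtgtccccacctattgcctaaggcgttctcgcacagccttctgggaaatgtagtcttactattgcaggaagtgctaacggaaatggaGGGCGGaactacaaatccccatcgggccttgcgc
Klf2: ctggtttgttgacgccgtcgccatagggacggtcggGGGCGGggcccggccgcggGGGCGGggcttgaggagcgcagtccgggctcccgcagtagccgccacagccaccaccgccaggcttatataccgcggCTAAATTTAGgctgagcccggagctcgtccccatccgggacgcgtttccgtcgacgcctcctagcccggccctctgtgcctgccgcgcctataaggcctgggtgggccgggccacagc
Klf4: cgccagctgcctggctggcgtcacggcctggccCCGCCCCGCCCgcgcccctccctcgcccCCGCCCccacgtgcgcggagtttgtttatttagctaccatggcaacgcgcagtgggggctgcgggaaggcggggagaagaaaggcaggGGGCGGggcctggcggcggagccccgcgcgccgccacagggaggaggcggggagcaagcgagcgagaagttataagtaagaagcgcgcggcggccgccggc
Klf2 held 1 MEF2 match, CTAAATTTAG, which begins 118 bases before the start. The windows of Klf4 and Pdcd10 held none. Among 32841 RefSeq promoter windows of the same length, 3.2% held the MEF2 motif and 32.7% held a GC box, of which Klf4 had 4, Klf2 had 2 and Pdcd10 had 2. A RefSeq window was found for 8 of the 9 genes. Of the other windows only those of Krit1 held a match to this loose form, CTATAGCTAG, with G and C among its middle bases. The 5 others had none. No MEF2 match overlaps a GC box, 2 of the GC boxes of Klf4 share 1 base, and a match describes letters in the window and no bound factor.

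Depth ranged from 21596798 to 67223388 counts per library (median 51026968.5). Columns of the count table were grouped by the prefix of their names into 3 sets, labelled A to C. Sets B and C have a single prefix each. Set A pools FM and FNM, seen only on p53fl/fl columns, with WFM and WFNM, seen only on p53R172H/fl columns. Prefix and genotype therefore cannot be separated within set A. What the prefixes mean is not stated. Set A holds no p53R245W/fl library, and set C holds 11 of the 17 p53R245W/fl libraries but only 2 of the 16 p53fl/fl libraries. Each of the 18 set B libraries, 6 per genotype, had 1 close counterpart of the same genotype in another set, called its match. Genotype and set means were first removed from each gene, and chromosomes X, Y and M were left out. Spearman's rho of what remained, over 14468 genes, was between 0.633 and 0.924 with the match and at most 0.508 with the next best library. The labels give matched libraries different tumour numbers and do not say whether they share a tumour. Values are therefore given over 52 libraries (edgeR) and also from a paired limma voom fit with the library set as covariate and each matched pair as a block, and from edgeR on 34 units, in which the counts of matched libraries were summed (10, 13 and 11 units for p53fl/fl, p53R172H/fl and p53R245W/fl). Whether libraries come from separate mice is not stated, so p-values measure the spread between libraries. Trp53 itself checked the p53fl/fl label. It reached at most 20.1 CPM (read counts scaled to an equal library size) in p53fl/fl and was never below 26 in p53R172H/fl or 22 in p53R245W/fl. Between p53R245W/fl and p53R172H/fl it differed by 0.06 on the log2 scale (SE 0.13, edgeR adjusted p = 0.742). Its level therefore did not check those labels against each other. The bone matrix gene Col1a1 was abundant in most libraries, with medians of 33100, 51300 and 23200 CPM in the order above, but 5 p53R245W/fl libraries, which form 3 units, lay under 13 on the log2 CPM scale. Results were recomputed without them.

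Pdcd10 (ENSMUSG00000027835.11) lies on the minus strand of chromosome 3 at 75516490 to 75556856 (GRCm38). In p53fl/fl tumours its lowest, median and highest level was 20.7, 30.7 and 42.3 CPM. In p53R172H/fl these were 11.3, 21.7 and 32 CPM. In p53R245W/fl they were 23.1, 38.9 and 108 CPM. Against the p53fl/fl median, 15 of 17 p53R245W/fl libraries were higher and 18 of 19 p53R172H/fl libraries were lower. The ranges overlapped: 6 p53R245W/fl libraries lay above every p53fl/fl library and 9 p53R172H/fl libraries lay below every one.

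**Figure D1:**
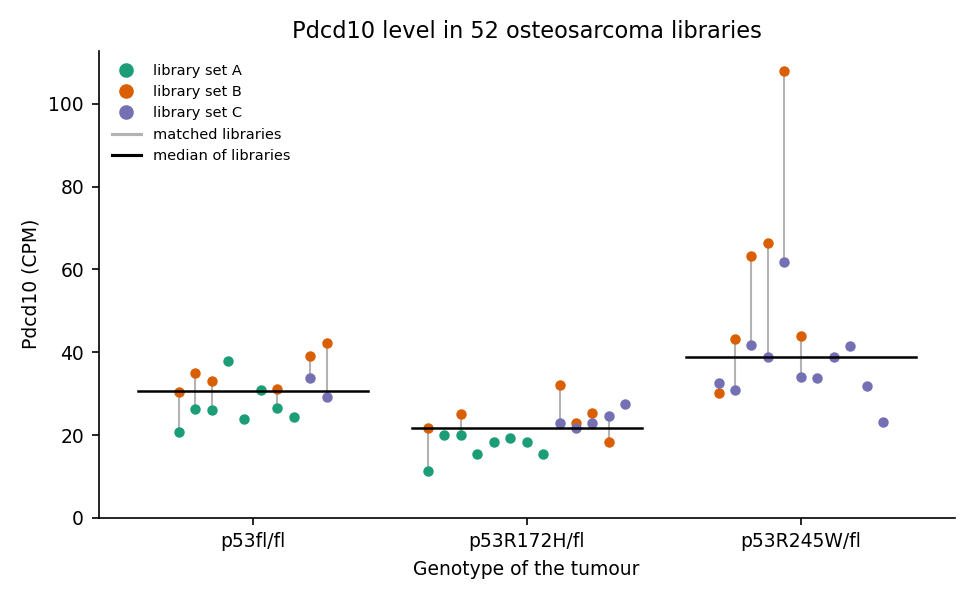
Pdcd10 in CPM (vertical axis) in each of the 52 libraries by genotype (horizontal axis), with colours for library sets, grey lines joining matched libraries and black bars for the median of each genotype (30.7, 21.7 and 38.9 CPM). The highest value, 108 CPM, and its match at 61.9 CPM belong to 1 p53R245W/fl unit.

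The p53R245W/fl mean was 1.46-fold the p53fl/fl mean (log2 0.55, SE 0.15), which is the difference that chose the list. Its size moved with the processing: it was 0.35 (SE 0.19) in the paired fit, 0.45 (SE 0.16) over summed units, 0.43 without the low Col1a1 libraries, 0.74 within set B and 0.22 within set C. The share of counts at loci annotated as TEC or sense intronic, classes of unspliced transcripts, had medians of 0.326%, 0.304% and 0.152% in p53fl/fl, p53R172H/fl and p53R245W/fl. With that share as a covariate, chosen after seeing the data, the difference was 0.14 (SE 0.16), and its part in the result was not otherwise tested. The highest library, tumour 494, had 108 CPM and its match, tumour 1831, had 61.9 CPM, so the highest value was high in both libraries of its unit.

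In p53R172H/fl, Pdcd10 fell by 0.53 on the log2 scale against p53fl/fl (SE 0.14, edgeR adjusted p = 0.0244). The paired fit gave a fall of similar size, by 0.51, that did not pass the threshold (limma adjusted p = 0.304), as did summed units (fell by 0.55, edgeR adjusted p = 0.111). Leaving out 1 unit at a time gave changes between -0.58 and -0.47, and the call was lost for 2 of 23 units, with the highest adjusted p of 0.058 without unit 6019. Both mutant groups are compared with the same 16 p53fl/fl libraries. Directly compared, p53R245W/fl stood 1.08 above p53R172H/fl on the log2 scale (SE 0.14, paired fit 0.86), and 13 of 17 p53R245W/fl libraries lay above every p53R172H/fl library.

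Of the 8 other genes, 2 passed the test in p53R172H/fl against p53fl/fl (edgeR over 52 libraries, adjusted p under 0.05): Heg1 higher and Krit1 lower. Over all 18882 genes tested, 3.75% were called in this comparison (1.46% higher, 2.29% lower). In p53R245W/fl against p53fl/fl, 3 of 8 were called, with Stk24 and Stk26 higher and Krit1 lower, beside 17.8% of all genes (10% higher, 7.82% lower). Between the mutant groups 5 of 8 were called, with Stk24 and Stk26 higher and Heg1, Klf2 and Klf4 lower in p53R245W/fl, beside 30.9% of all genes (18.2% higher, 12.7% lower). In the paired fit the counts were 0, 0 and 2 of 8 beside 0.0106%, 0.0159% and 1.55% of all genes, and over summed units they were 0, 0 and 3 of 8 beside 0.259%, 9.04% and 15.2%. At an unadjusted p under 0.05 the paired limma fit had 2, 3 and 5 of 8 and the summed edgeR fit 2, 2 and 5 of 8, and DESeq2 over libraries called 2, 3 and 5 after adjustment. The direction in which Pdcd10 was chosen was shared in p53R245W/fl against p53fl/fl by the kinases Stk24 and Stk26, called over libraries only, and Krit1 was called in the opposite direction.

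**Figure D2:**
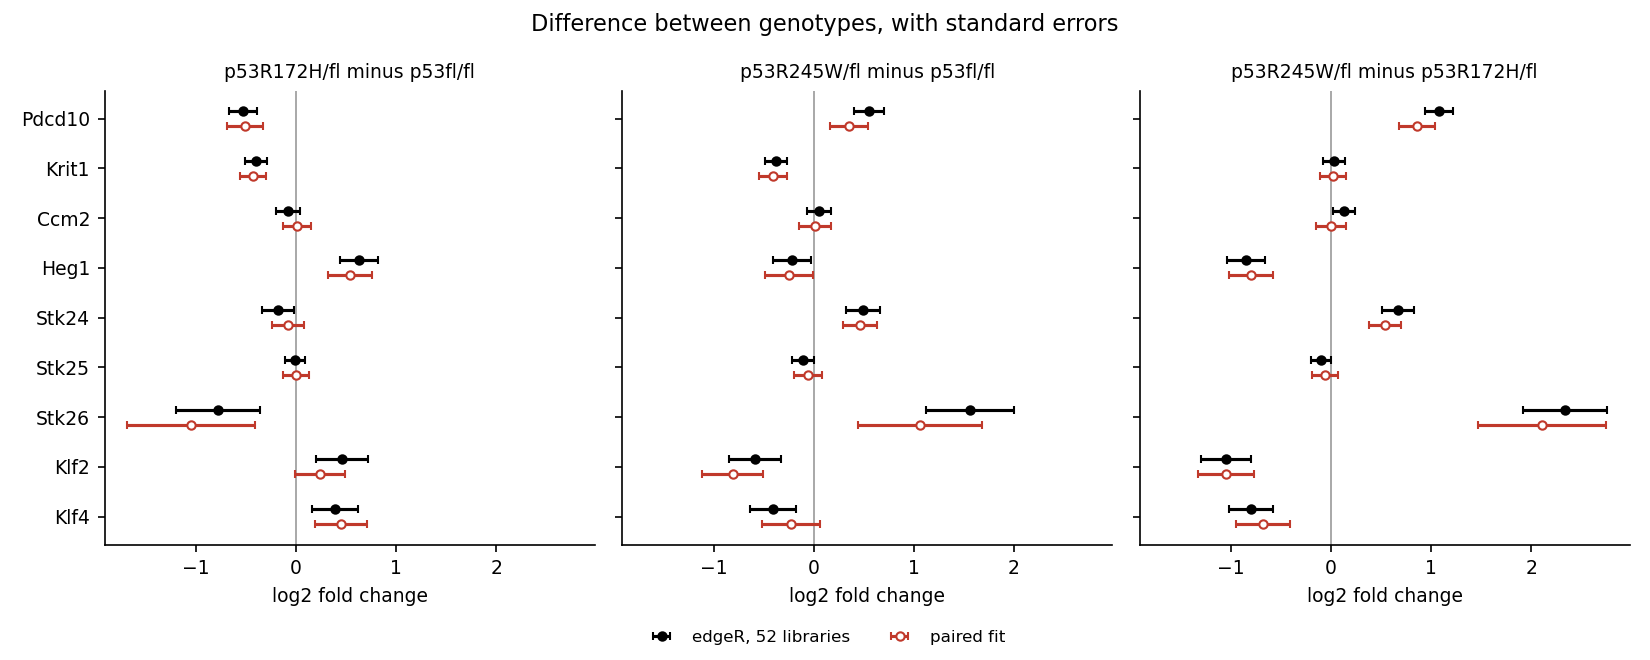
Log2 fold changes (horizontal axis) with standard errors of the 9 genes (vertical axis) in the 3 genotype comparisons, from edgeR over 52 libraries (filled) and the paired fit (open). Stk26 has the highest values in both p53R245W/fl comparisons, 1.56 and 2.34, and Ccm2 and Stk25 lie within 0.13 of 0 throughout. Pdcd10 in both p53R245W/fl panels is the value that chose the genes or shares its libraries.

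Krit1, the scaffold that links the complex to RAP1 and to HEG1, went the other way. Its lowest, median and highest level was 52.3, 63.4 and 114 CPM in p53fl/fl, 35.9, 51.5 and 62 CPM in p53R172H/fl and 24, 52.9 and 70.6 CPM in p53R245W/fl. All 19 p53R172H/fl libraries and 14 of 17 p53R245W/fl libraries lay below the p53fl/fl median, although the ranges overlapped. It fell by 0.40 (SE 0.11, edgeR adjusted p = 0.0244) in p53R172H/fl and by 0.38 (SE 0.11, adjusted p = 0.0142) in p53R245W/fl. The difference between the mutant groups was 0.03 (SE 0.11). The calls were lost in the paired fit (limma adjusted p = 0.203 and 0.237) and over summed units (edgeR adjusted p = 0.121 and 0.0583). Without unit 1431, which holds the highest Krit1 library, adjusted p was 0.109 and 0.0813. With that unspliced share (TEC and sense intronic) as covariate the p53R245W/fl change was -0.16. Krit1 is counted over 21853 exon bases and overlaps Lrrd1 on the same strand, so reads of the overlap could be assigned to either.

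Ccm2, the adaptor that binds MEKK3, was called in no comparison. Its range was 17.9 to 53 CPM in p53fl/fl (median 38.4), 26.6 to 45.7 in p53R172H/fl (median 34.4) and 26.1 to 64.2 in p53R245W/fl (median 37.1), and the groups overlapped throughout. The changes were -0.08 and 0.05 against p53fl/fl and 0.13 between the mutant groups, with SE between 0.11 and 0.12.

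Heg1, the junctional receptor that anchors KRIT1, was highest in p53R172H/fl. Its lowest, median and highest level was 89, 174 and 257 CPM in p53fl/fl, 145, 232 and 512 CPM in p53R172H/fl and 39.4, 154 and 251 CPM in p53R245W/fl. In p53R172H/fl 16 of 19 libraries exceeded the p53fl/fl median and 6 lay above every p53fl/fl library. It rose by 0.63 in p53R172H/fl (SE 0.19, edgeR adjusted p = 0.0435), a call lost for 10 of 23 units left out, in the paired fit (limma adjusted p = 0.383) and over summed units (edgeR adjusted p = 0.396). The change in p53R245W/fl was -0.22 (SE 0.19) and did not pass, and was 0.03 without the low Col1a1 libraries. Between the mutant groups Heg1 was lower in p53R245W/fl by all 3 fits: -0.85 over libraries (SE 0.19, edgeR adjusted p = 0.000567), -0.80 in the paired fit (limma adjusted p = 0.0466) and -0.78 over summed units (edgeR adjusted p = 0.0223). Without the low Col1a1 libraries the difference was -0.61 (edgeR adjusted p = 0.008). With that unspliced share (TEC and sense intronic) as covariate it was -0.71 and no longer passed (adjusted p = 0.0607). Over units, Heg1 had a Spearman's rho of 0.49 with the bone matrix, 0.58 with the pericyte and 0.41 with the endothelial marker score (n = 34, genotype means removed). The part of cell content in its difference was not tested. In bulk tumour RNA, fewer cells of a type and less RNA per cell cannot be told apart.

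Stk24 (MST3), a PDCD10-binding kinase with a role in cell migration, was higher in p53R245W/fl. Its lowest, median and highest level was 29.3, 52.7 and 75.2 CPM in p53fl/fl, 32.5, 44 and 78 CPM in p53R172H/fl and 32, 66.1 and 165 CPM in p53R245W/fl. Of the 17 p53R245W/fl libraries, 12 exceeded the p53fl/fl median and 6 lay above every p53fl/fl library. The rise against p53fl/fl was 0.49 (SE 0.17, edgeR adjusted p = 0.0327). It was lost for 7 of 21 units left out, falling to 0.33 without unit 1835, which holds the highest library (adjusted p = 0.13). It did not pass in the paired fit (0.46, limma adjusted p = 0.303), over summed units (0.36, edgeR adjusted p = 0.26) or without the low Col1a1 libraries (0.41, edgeR adjusted p = 0.088). Against p53R172H/fl the difference was 0.67 (SE 0.16, edgeR adjusted p = 0.00135), with limma adjusted p = 0.0648 in the paired fit and edgeR adjusted p = 0.0531 over summed units. The change in p53R172H/fl was -0.18 (SE 0.16) and was not called.

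Stk26 (MST4), the most lowly expressed of the 9 genes, gave the largest fold change among them. It is X-linked and had 13 to 2869 counts per library. Its lowest, median and highest level was 0.631, 3.36 and 8.34 CPM in p53fl/fl, 0.29, 1.55 and 4.86 CPM in p53R172H/fl and 0.675, 6.09 and 51.2 CPM in p53R245W/fl. Only 6 of 17 p53R245W/fl libraries exceeded every p53fl/fl library, and 10 exceeded every p53R172H/fl library. Stk26 rose 2.95-fold against p53fl/fl (log2 1.56, SE 0.44, edgeR adjusted p = 0.0105) and stood 5.06-fold above p53R172H/fl (log2 2.34, SE 0.42, adjusted p = 6.93e-05). The rise against p53fl/fl was 1.06 in the paired fit (limma adjusted p = 0.549) and 1.64 over summed units (edgeR adjusted p = 0.0586). Without unit 1835, with the highest Stk26 library, it was 1.03 (adjusted p = 0.0715). The difference from p53R172H/fl passed over summed units (2.32, edgeR adjusted p = 0.00443), missed the threshold in the paired fit (2.11, limma adjusted p = 0.0682), and passed for each of the 24 units left out in turn. Xist, the transcript of the inactive X, was between 0 and 845 CPM in p53R245W/fl and between 6.34 and 2530 in p53fl/fl; with it as covariate Stk26 was 1.53 above p53fl/fl (adjusted p = 0.0228).

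Stk25, the GCKIII kinase that binds the Golgi protein GM130, was called in no comparison. Its median was 107, 97.5 and 99.7 CPM in p53fl/fl, p53R172H/fl and p53R245W/fl, within ranges of 69.9 to 142, 81.9 to 207 and 76.4 to 121 CPM that overlapped. The changes were -0.01 and -0.11 against p53fl/fl and -0.10 between the mutant groups, with SE of 0.10 to 0.11. Stk25 overlaps Farp2 on the other strand, with 761 bases of transcript at 99.7% identity, and the strand setting of the counting is not given in the sources used here.

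Klf2 and Klf4, the factors that rise when the complex is lost from endothelium, were not called against p53fl/fl in either mutant group and were lower in p53R245W/fl than in p53R172H/fl. Klf2 had a lowest, median and highest level of 5.44, 12 and 28.6 CPM in p53fl/fl, 6.81, 15.7 and 44.5 CPM in p53R172H/fl and 1.31, 7.52 and 16 CPM in p53R245W/fl. The changes against p53fl/fl were 0.46 (SE 0.26, edgeR adjusted p = 0.333) and -0.59 (SE 0.26, adjusted p = 0.106). Between the mutant groups 16 of 17 p53R245W/fl libraries lay below the p53R172H/fl median, and the difference was -1.05 over libraries (SE 0.25, edgeR adjusted p = 0.00157). It was also -1.05 in the paired fit (limma adjusted p = 0.0413) and -0.92 over summed units (edgeR adjusted p = 0.0289). With that unspliced share (TEC and sense intronic) as covariate it was -0.68 (edgeR adjusted p = 0.214).

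Klf4 ranged from 26.6 to 169 CPM in p53fl/fl (median 61.3), from 44.4 to 170 in p53R172H/fl (median 110) and from 9.66 to 138 in p53R245W/fl (median 56.4). As for Klf2, the ranges overlapped, and 16 of 17 p53R245W/fl libraries lay below the p53R172H/fl median. Changes against p53fl/fl were 0.39 and -0.41 (SE 0.23 each), neither called. The difference of p53R245W/fl from p53R172H/fl was -0.80 over libraries (SE 0.22, edgeR adjusted p = 0.00555). The difference did not pass in the paired fit (-0.68, limma adjusted p = 0.16) or over summed units (-0.70, edgeR adjusted p = 0.0871).

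**Figure D3:**
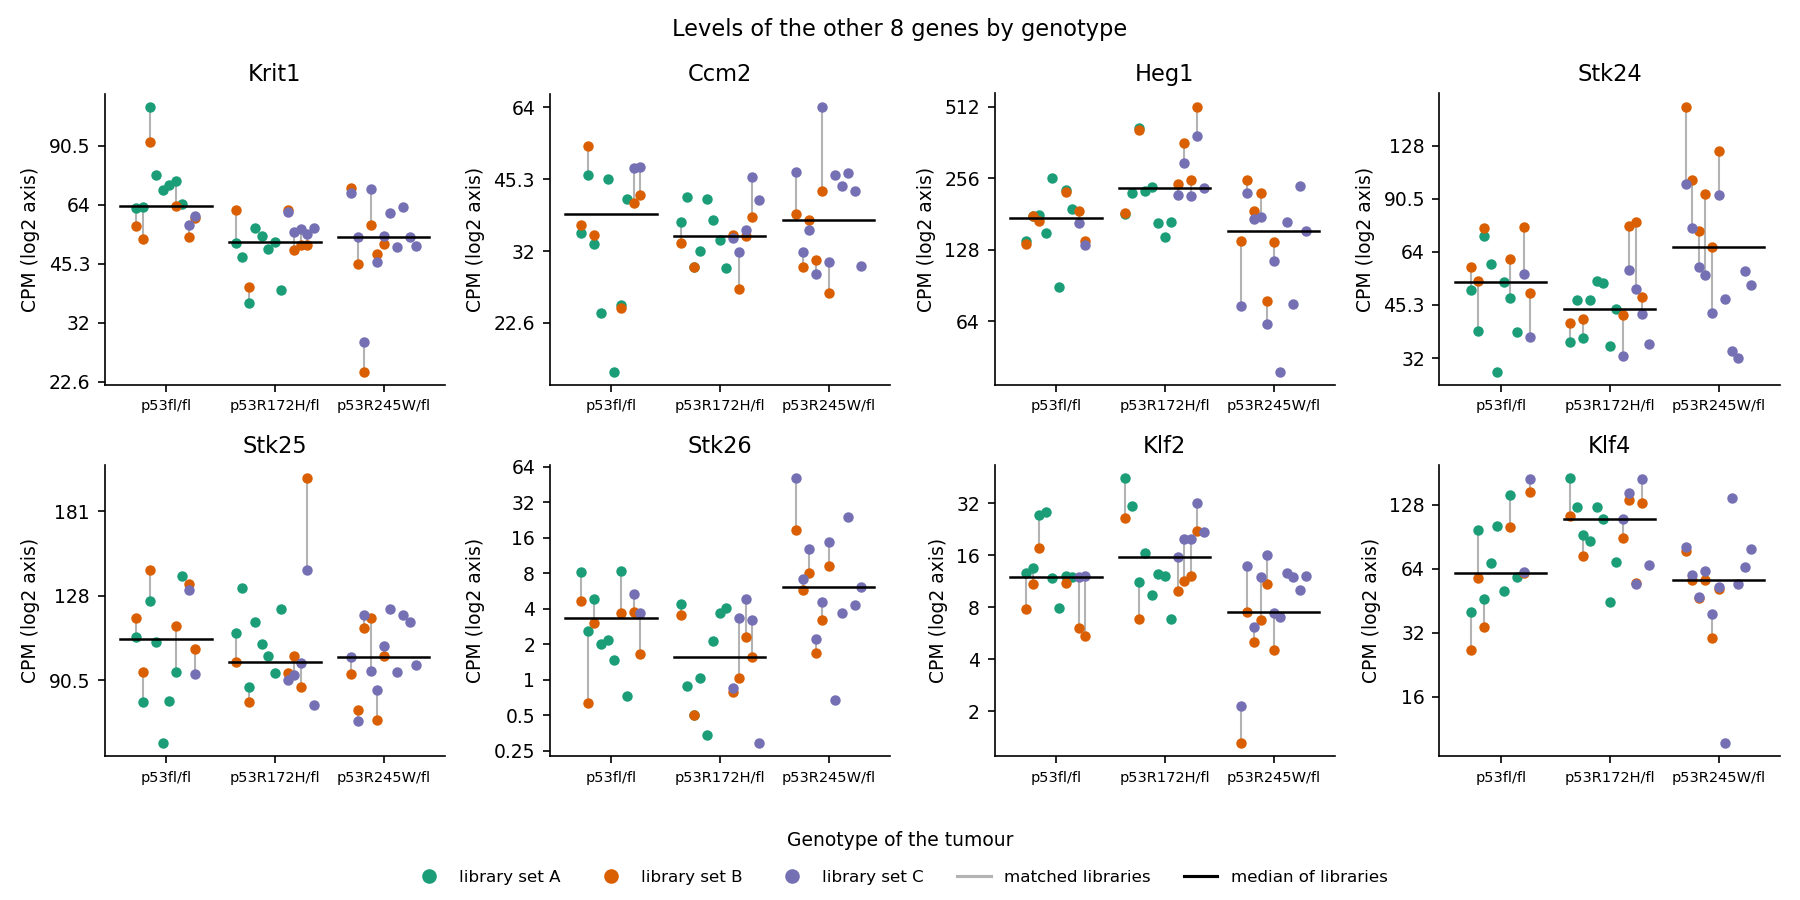
CPM on a log2 axis (vertical) of the other 8 genes in each library by genotype (horizontal), with colours for library sets, grey lines joining matched libraries and black bars for medians. Stk26 reaches 51.2 CPM in 1 p53R245W/fl library, and the p53R245W/fl values of Klf2 lie mostly below the p53R172H/fl median of 15.7 CPM.

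Several of these genes differed between library sets within matched pairs, where genotype is the same. Pdcd10 was higher in the set B library of 16 of 18 pairs, by a median of 0.39 on the log2 scale (range -0.42 to 0.94), and Stk24 in 18 of 18 pairs (median 0.41, range 0.07 to 0.76). Stk26 was lower in the set B library of all 18 pairs (median -0.69, range -1.97 to -0.01), and so was Klf2 (median -0.70, range -1.16 to -0.13). Klf4 was lower in 17 of 18 pairs, with a median of -0.25. Krit1, Ccm2, Heg1 and Stk25 had medians between -0.12 and 0.16. The set differences of Pdcd10, Stk24 and Klf2 are thus close in size to their differences of 0.55, 0.49 and -0.59 between p53R245W/fl and p53fl/fl. Set B supplies 6 libraries to each genotype, whereas sets A and C are unequally spread over genotypes.

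**Figure D4:**
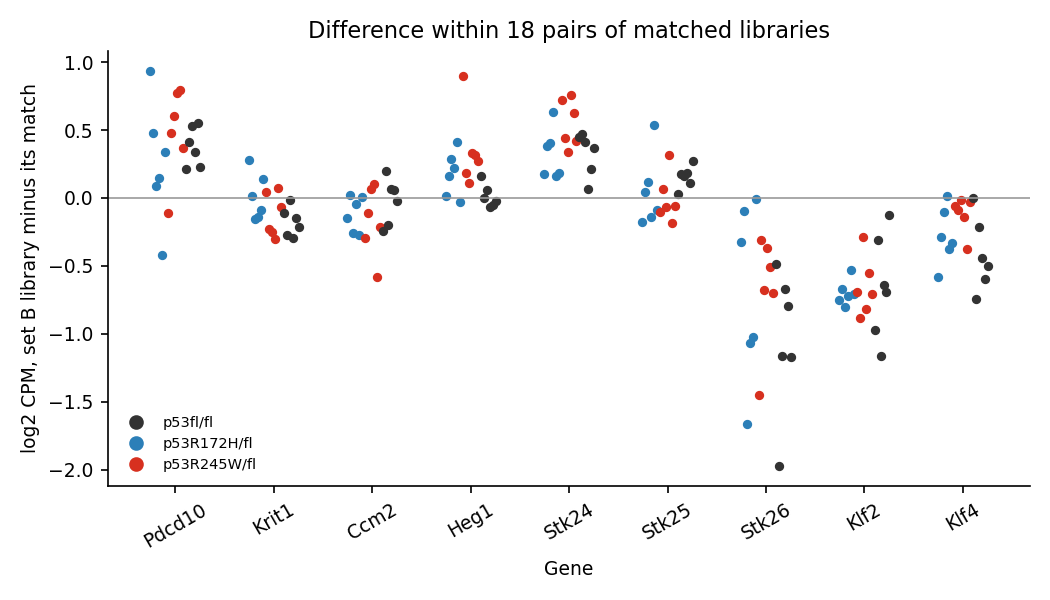
Log2 CPM in the set B library minus that in its match (vertical axis) for the 9 genes (horizontal axis) in 18 pairs, coloured by genotype. All 18 values of Stk24 are above 0 and all 18 of Stk26 and of Klf2 are below it.

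Within sets, each of which holds fewer libraries, the signs of the called differences were the same as over all libraries. These values are not free of other technical differences. By the lane tags in the column names, only tumour 1580 of the p53R245W/fl group shared a lane with other genotypes in set C. Differences of p53R245W/fl within that set are therefore nearly inseparable from lane, and the part of lane was not tested. Krit1 in p53R172H/fl was -0.61, -0.26 and -0.08 in sets A, B and C, Pdcd10 was -0.62, -0.52 and -0.42, and Heg1 was 0.34, 0.93 and 0.81. Against p53fl/fl, which set C represents by only 2 libraries, p53R245W/fl had 1.42 and 1.37 for Stk26, 0.75 and 0.33 for Stk24 and -0.36 and -0.13 for Krit1 in sets B and C. Between the mutant groups the same sets gave -0.97 and -0.97 for Heg1, -1.32 and -1.10 for Klf2, -0.92 and -0.79 for Klf4, 2.25 and 2.23 for Stk26 and 0.92 and 0.43 for Stk24. Of these, only Stk24 within set B passed its test (edgeR adjusted p = 0.046).

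Scaled by exon length, so that genes can be compared, mean levels over the 52 libraries were 26.7 CPM per kilobase for Klf4, 18.1 for Stk25, 15.6 for Heg1, 10.8 for Pdcd10, 10.8 for Stk24, 10 for Ccm2, 7.28 for Klf2, 2.6 for Krit1 and 1.0 for Stk26. Pdcd10, Stk24 and Ccm2 in the middle of that order are within the spread of their libraries. The low value of Krit1 divides by the 21853 exon bases of all its annotated transcripts together.

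Correlations of the other 8 genes with Pdcd10 across tumours were low when the genotypes were pooled. Over 34 units, with the mean of each genotype removed, Spearman's rho of Pdcd10 was between -0.25 (Stk26) and 0.11 (Stk24) with the 8 others, and Pearson's r was between -0.18 and 0.15. Within single genotypes, of 10, 13 and 11 units, rho varied more widely and without a test: Pdcd10 with Heg1 had -0.58 in p53fl/fl, 0.55 in p53R172H/fl and -0.08 in p53R245W/fl. In p53R172H/fl it was -0.66 with Stk25 and -0.57 with Stk26, in p53fl/fl 0.52 with Stk24 and in p53R245W/fl -0.48 with Klf4. None of all 36 pairs of genes passed after Benjamini-Hochberg adjustment over the 36 (permutation tests with 100000 resamples, two-sided). The smallest adjusted p was for Heg1 and Klf4 (Pearson's r = 0.57, p = 0.00201, adjusted p = 0.0724, Spearman's rho = 0.41, p = 0.0203, adjusted p = 0.365), and r was 0.35 without the 2 units of most extreme Heg1. Ccm2 and Stk24 were inversely related before adjustment (r = -0.37, p = 0.0391, adjusted p = 0.705, rho = -0.45, p = 0.0118, adjusted p = 0.365), and r was -0.40 without the 2 units of most extreme Ccm2. With library set means removed as well, these r values were 0.57 and -0.36. Klf2 and Klf4 had rho = 0.13.

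**Figure D5:**
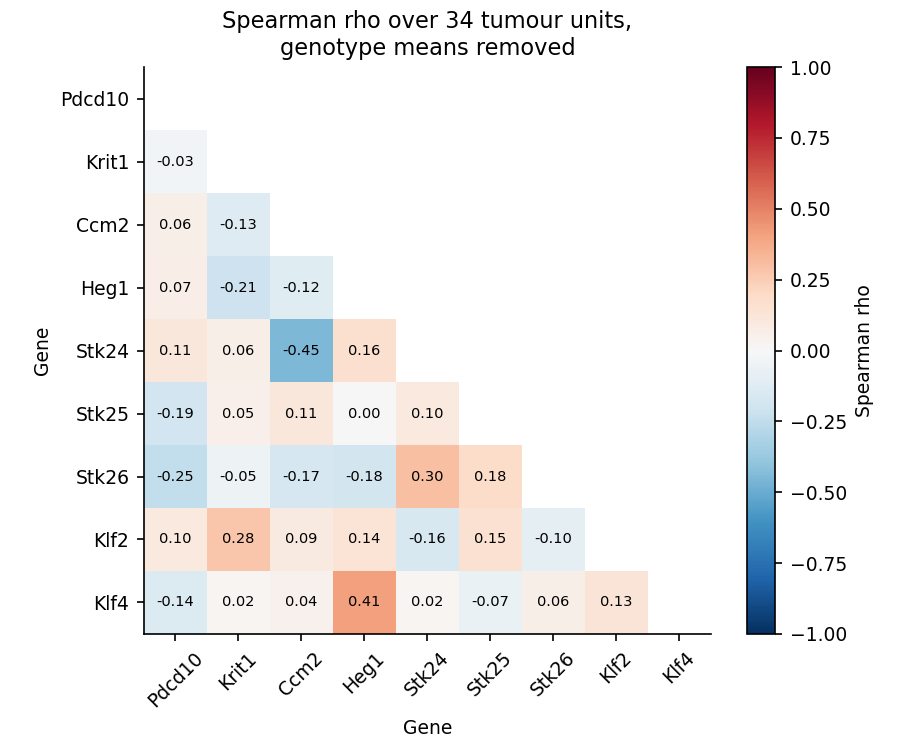
Spearman's rho between the 9 genes (both axes) over 34 units after removing genotype means, in colour and digits. The Pdcd10 column runs from -0.25 to 0.11, and the values farthest from 0 are -0.45 for Ccm2 with Stk24 and 0.41 for Heg1 with Klf4.

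The genes whose levels followed Pdcd10 most closely lay outside the pathway. Among 14838 genes of at least 1 CPM, the 8 with the highest rho were Gtf2a2 (0.81), Sept7 (0.78), Arpp19 (0.75), Atp5l (0.75), Armc1 (0.73), Pdcd2 (0.72), Clpx (0.72) and Bnip2 (0.70), over 34 units with genotype means removed. They encode, among others, a subunit of the general transcription factor TFIIA (Gtf2a2), a septin (Sept7), an inhibitor of PP2A-B55 (Arpp19) and a subunit of ATP synthase (Atp5l). Without the low Col1a1 units the 8 values were between 0.63 and 0.81, and with set means removed between 0.56 and 0.76. Of these 8 genes 6 lie on chromosome 9, which holds 5.83% of the genes ranked, while Pdcd10 and Armc1 lie on chromosome 3. The other CCM genes ranked between 4978 (Stk24) and 12919 (Stk26) of 14838. Pdcd10 itself had rho = -0.36 and r = -0.45 with the TEC and sense intronic share.

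Within 1 Mb of the Pdcd10 start 2 other genes were tested. Serpini1, a neuronal serpin that starts 691 bases away in the opposite direction, rose in p53R245W/fl against p53fl/fl (1.26, SE 0.41, edgeR adjusted p = 0.0259), from a median of 0.867 to 1.16 CPM. Its highest library was tumour 1831 with 13.7 CPM, from the unit with the highest Pdcd10, and the call was lost in the paired fit (0.32, limma adjusted p = 0.874) and over summed units (0.95, edgeR adjusted p = 0.224). Golim4, a Golgi protein gene 400093 bases away, was at -0.40 (SE 0.16, adjusted p = 0.0678) in p53R245W/fl and -0.45 in p53R172H/fl. A processed pseudogene, Gm14253, matches 639 of 1927 bases of the Pdcd10 transcript at 99.4% identity. It had at most 0.344 CPM in any library, against at least 11.3 CPM for Pdcd10.

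The wider pathway was described with 4 lists, whose counts are to be read against the shares of all genes called, 3.75%, 17.8% and 30.9% in the 3 comparisons. Of 20 CCM signalling partners, 1 was lower in p53R172H/fl and 1 higher in p53R245W/fl against p53fl/fl, and both were Rap1a, the small GTPase that recruits KRIT1 to junctions. Rap1a had means of 54.8 ± 10.2, 40.1 ± 11.6 and 71.4 ± 21.3 CPM (SD, n = 16, 19 and 17) and changed by -0.45 (edgeR adjusted p = 0.0427) and 0.38 (adjusted p = 0.0436), then 0.83 between the mutant groups (adjusted p = 1.34e-05). That last difference also passed in the paired fit (0.73, limma adjusted p = 0.0299), whereas both changes against p53fl/fl were lost there (adjusted p = 0.265 and 0.727) and over summed units (edgeR adjusted p = 0.168 and 0.107). The 2 others called between the mutant groups were Rap1b (0.47, edgeR adjusted p = 0.0427), its close paralogue, and Mef2d (-0.71, adjusted p = 0.00111), a target of ERK5. Neither passed in the paired fit (limma adjusted p = 0.444 and 0.154), and over summed units Mef2d passed (edgeR adjusted p = 0.0199) and Rap1b did not (0.161). The medians over the list were 0.00, -0.06 and -0.11, beside -0.02, 0.04 and 0.07 over all genes. Map3k3 itself was called in none.

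Of 24 STRIPAK and GCKIII partners, 2 were lower in p53R172H/fl, namely Cab39 (-0.39, edgeR adjusted p = 0.019), an activator of these kinases, and Strn3 (-0.49, adjusted p = 0.0234), a striatin. In that comparison 0 of 24 passed in the paired limma fit (4 at an unadjusted p under 0.05) and 0 over summed units by edgeR (3 unadjusted). In p53R245W/fl against p53fl/fl 4 were higher, led by Cttnbp2 (1.74, adjusted p = 0.00475), Mob4 (0.49, adjusted p = 0.0252) and the PP2A scaffold Ppp2r1a (0.34, adjusted p = 0.0257), and Strn was lower (-0.49, adjusted p = 0.00964). These 5 of 24 stand beside 17.8% of all genes, a share near theirs, and 0 of 24 passed in the paired limma fit (1 unadjusted) and 2 over summed units. Without the low Col1a1 libraries edgeR called none of the 24 there (4 at an unadjusted p under 0.05), and Cttnbp2 was at 0.13 (edgeR adjusted p = 0.816); it had a median of 1.81 CPM and a maximum of 41.8 CPM in p53R245W/fl. Between the mutant groups 8 of 24 were higher in p53R245W/fl and 0 lower, beside 18.2% and 12.7% of all genes, led by Mob4 (0.74, edgeR adjusted p = 0.000256), Cab39 (0.45, adjusted p = 0.00059) and Cab39l (0.62, adjusted p = 0.00165). The list's median was 0.27 beside 0.07 over all genes. Over summed units 6 were higher, and in the paired limma fit 0 of 24 passed (10 at an unadjusted p under 0.05) with a median of 0.27. With the low Col1a1 libraries left out, edgeR called 5 higher and 1 lower between the mutant groups, and the median was 0.16. Cttnbp2 was then at -0.14 (edgeR adjusted p = 0.765) and Strn3 at 0.26 (adjusted p = 0.137).

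Of 18 genes linked to KLF2 and KLF4 or to CCM lesions, Dll4, a Notch ligand, was higher in p53R172H/fl (0.71, edgeR adjusted p = 0.0268). Adamts9, a versican-cleaving protease, was lower in p53R245W/fl (-0.86, adjusted p = 0.0203). Both calls were lost in the paired fit (limma adjusted p = 0.21 and 0.253) and over summed units (edgeR adjusted p = 0.186 and 0.0995), and that of Adamts9 also without the low Col1a1 libraries (0.127). Between the mutant groups 2 were higher in p53R245W/fl, Vcan (1.35, adjusted p = 0.0271), which encodes versican, and Nostrin (0.59, adjusted p = 0.0456), and 3 were lower, Adamts9 (-1.27, adjusted p = 0.00031), the endothelial nitric oxide synthase Nos3 (-0.58, adjusted p = 0.0166) and Bmp6 (-1.15, adjusted p = 0.0372). These 5 of 18 are no larger a share than the 30.9% of all genes called in this comparison. The called genes moved in both directions, and the list's medians were 0.08, 0.03 and 0.13. The list was not sorted by the direction expected of each gene, so its medians do not measure KLF2 or KLF4 output. Adamts9 was the 1 gene of the list called between the mutant groups in the paired fit (-1.06, limma adjusted p = 0.0341) and over summed units (edgeR adjusted p = 0.0111). Without the low Col1a1 libraries the difference of Vcan was 0.52 (edgeR adjusted p = 0.456).

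Of 18 other KLF and SP factors 16 were tested, and edgeR called 1, 2 and 4 of them in the 3 comparisons. Sp3 was lower in p53R172H/fl (-0.61, edgeR adjusted p = 2.21e-05), with 124 to 227 CPM in p53fl/fl and 57.7 to 125 CPM in p53R172H/fl, and 0.51 higher in p53R245W/fl than in p53R172H/fl (adjusted p = 2.01e-05). Both passed over summed units (edgeR adjusted p = 0.00941 and 0.00183) and missed the threshold in the paired fit (limma adjusted p = 0.12 and 0.0513). Klf5, an epithelial factor, was called higher in p53R245W/fl (3.43 against p53fl/fl, adjusted p = 0.00295), but its median there was 0.596 CPM against 0.416 and its highest library had 121 CPM. Without the low Col1a1 libraries Klf5 was at -1.05 (edgeR adjusted p = 0.179), and in the paired fit at 0.85 (limma adjusted p = 0.769). Klf16 was lower in p53R245W/fl against p53fl/fl (-0.43, edgeR adjusted p = 0.03), a call lost in the paired fit (-0.27, limma adjusted p = 0.657), over summed units (edgeR adjusted p = 0.235) and without the low Col1a1 libraries (0.206). Between the mutant groups Klf5 (3.67, edgeR adjusted p = 0.000383) and Sp1 (0.30, adjusted p = 0.0196) were also higher in p53R245W/fl, and Klf16 lower (-0.40, adjusted p = 0.0207). These were lost in the paired fit (limma adjusted p = 0.515, 0.199 and 0.307), and over summed units only Klf5 passed (edgeR adjusted p = 0.00539). Klf5 was at -0.82 there without the low Col1a1 libraries (edgeR adjusted p = 0.243). The medians of this list were -0.15, -0.08 and 0.04.

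Because KLF2, KLF4 and HEG1 are known from endothelium, marker lists were read beside them. By edgeR none of 15 endothelial markers was called in either mutant group against p53fl/fl (2 in each at an unadjusted p under 0.05; DESeq2 called 0 and 1), and 2 were lower in p53R245W/fl than in p53R172H/fl. Their summed level ranged from 319 to 871 CPM in p53fl/fl, 466 to 1050 in p53R172H/fl and 308 to 942 in p53R245W/fl, and no marker was at 0 in a whole group. With the mean log2 level of these markers as covariate, the difference between the mutant groups was -0.99 for Klf2 (edgeR adjusted p = 0.00393) and -0.88 for Klf4 (adjusted p = 0.00425), and the change of Heg1 in p53R172H/fl was 0.53 and no longer passed (adjusted p = 0.0994). Among the other lists, skeletal muscle markers were higher in p53R172H/fl than in p53fl/fl (5 of 8 called, beside 3.75% of all genes), with 0 of 8 in the paired limma fit and over summed units by edgeR (8 at an unadjusted p under 0.05 in each). Keratinocyte markers were higher in p53R245W/fl than in p53fl/fl (4 of 9 tested, beside 17.8% of all genes, sum up to 2840 CPM), with 0 of 9 in the paired limma fit (1 unadjusted) and 1 of 9 without the low Col1a1 libraries. In the same comparison 1 of 11 bone matrix genes was lower and 1 of 9 T and NK cell genes higher. At an unadjusted p under 0.05 edgeR had 1 of 11 and 7 of 9, and DESeq2 called 1 and 3 after adjustment. The T and NK cell median was 1.41 beside 0.04 over all genes. Without the low Col1a1 libraries edgeR called 0 of these 9 (0 unadjusted), as did the paired limma fit (0 unadjusted). Between the mutant groups, where Heg1, Klf2 and Klf4 were called, 5 of 9 keratinocyte and 2 of 8 macrophage markers were higher and 4 of 8 muscle markers lower in p53R245W/fl, beside 30.9% of all genes. The paired limma fit called 0 in each of these lists (1, 0 and 3 at an unadjusted p under 0.05). Over summed units edgeR called 4 of 10 keratinocyte, 0 of 8 macrophage and 0 of 8 muscle markers (6, 2 and 3 unadjusted). Leaving out the low Col1a1 libraries gave 2 of 9, 1 of 8 and 0 of 8 (3, 2 and 4 unadjusted). Of 12 immediate early genes, which respond to tissue handling, Fosb was lower in p53R245W/fl against p53fl/fl (-1.07, edgeR adjusted p = 0.0334). Of the 12, 3 were called between the mutant groups, beside 30.9% of all genes. Egr1 (-0.71, edgeR adjusted p = 0.00382) and Fosb (-1.04, adjusted p = 0.0205) were lower and Ier3 (0.80, adjusted p = 0.0284) higher. The list's median there was 0.24 beside 0.07 over all genes. Over units, with genotype means removed, Klf2 and Klf4 had Spearman's rho of -0.06 and -0.13 with the score of this list. With the endothelial score their rho was 0.22 and -0.12. By edgeR no macrophage, osteoclast, pericyte or sex-linked marker was called against p53fl/fl in either mutant group, and DESeq2 called 1, a macrophage marker in p53R245W/fl. At an unadjusted p under 0.05 edgeR had 1 macrophage marker, in p53R172H/fl, and 0 of the others. The part of cell content in the differences of the 9 genes was not tested beyond the covariate fits.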

How the data were processed

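The 52 stranded mRNA libraries of primary osteosarcomas were sequenced as paired reads, per the labels. The authors deposited raw read counts per gene, with no normalization; per the submitters' processing notes reads were aligned with STAR to GRCm38. For the counting program, its strand setting, versions and the annotation release, a statement is not given in the sources used here. Identifiers were joined to GENCODE M21 without their version suffix, which gave symbols for 20668 of 20730 genes. The lowest total of any gene was 260 counts, so genes of fewer counts are not in the table.

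Genes with enough counts (edgeR's filterByExpr, minimum count 10) were tested by edgeR 4.0.16 (R 4.3.3) over all 52 libraries, using TMM factors, genotype means and the robust quasi-likelihood F test, with Benjamini-Hochberg adjustment over 18882 genes and a threshold of 0.05. The paired fit used limma 3.58.1 (voom, duplicateCorrelation, within-pair correlation 0.857). The pairing comes from matched profiles, not from the labels. Alternatives were other library factors, DESeq2 1.42.0, other filters, only 2 genotypes in the fit, covariates, single library sets, summed units and libraries left out. The edgeR fit over libraries, the paired fit and DESeq2 were run on simulated counts. These counts held no matched pairs and no set differences, and the other fits were not run on them. CPM are counts scaled to an equal TMM library size; log2 CPM used a prior count of 2. Permutation tests of correlations used 100000 resamples.

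The 9 genes, the gene lists and the marker lists were chosen with earlier results of these data known. All 9 genes are named. In each pathway list up to 3 called genes per direction and comparison with the smallest p are named, with the 8 genes most like Pdcd10 in Spearman's rho and the tested neighbours within 1 Mb. RefSeq promoters are those of GRCm38.p6.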

Additional observations from a re-analysis of the deposited data

Results flagged for a closer look

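For 5 of the 8 genes other than Pdcd10 the change in p53R245W/fl differed from the change in p53R172H/fl, by edgeR's test of the difference itself over 52 libraries, beside 30.9% of all genes. Both changes are taken against the same p53fl/fl libraries, so the 2 values are not independent. Heg1 changed by 0.63 in p53R172H/fl and by -0.22 in p53R245W/fl, a difference of -0.85 (2 of 17 p53R245W/fl libraries above the p53R172H/fl median). Klf2 changed by 0.46 and -0.59, a difference of -1.05. Klf4 changed by 0.39 and -0.41, a difference of -0.80. Stk24 changed by -0.18 and 0.49, a difference of 0.67 (14 of 17 libraries above that median). Stk26 changed by -0.78 and 1.56, a difference of 2.34 (16 of 17 above). In the paired fit Heg1 and Klf2 passed the threshold and the other 3 did not (limma adjusted p between 0.0648 and 0.16).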

How the results depend on the processing

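Values are given for p53R172H/fl against p53fl/fl (comparison 1), p53R245W/fl against p53fl/fl (comparison 2) and p53R245W/fl against p53R172H/fl (comparison 3). Over libraries edgeR called 708, 3366 and 5829 genes, of which 2, 3 and 5 of the 8 genes other than Pdcd10. In the paired fit these were 2, 3 and 293 genes (0, 0 and 2 of 8), over summed units 51, 1783 and 3000 (0, 0 and 3 of 8), and over summed units without the low Col1a1 units 76, 853 and 1280 (0, 0 and 1 of 8). Within set A comparison 1 gave 95 genes (0 of 8); within set B the 3 gave 1, 4 and 615 (0, 0 and 1 of 8) and within set C 0, 0 and 3 (0 of 8 each; 1433, 607 and 3436 genes at an unadjusted p under 0.05). These subsets hold fewer libraries. DESeq2 called 1212 genes in comparison 1. Without the low Col1a1 libraries comparison 1 gave 1167, and with the library set as covariate as well the 3 gave 1371, 140 (0 of 8) and 2698. The library set alone as covariate gave 1005 (1 of 8) in comparison 2. The TEC and sense intronic share as covariate gave 1101 (1 of 8) and 1649 (3 of 8) in comparisons 2 and 3, and 1 of 8 in comparison 1, as did the endothelial score. The cause of these shifts was not tested. With set and pairing unaccounted for, edgeR over libraries treats matched libraries as independent.

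Reversed signs concerned values that were not called. Ccm2 in comparison 1 was 0.01 in the paired fit and 0.10 within set A. In comparison 2 it was -0.09 with the library set, -0.11 without the low Col1a1 libraries, -0.18 and -0.26 within sets B and C, -0.04 with Xist, -0.09 with the TEC share and -0.26 with set and without low Col1a1. In comparison 3 it was -0.03, -0.04 and -0.15 without low Col1a1, with the TEC share and with both set and low Col1a1 accounted for. Stk25 in comparison 1 was 0.01 with RLE factors, DESeq2 and a minimum count of 50, 0.0 in the paired fit, 0.12 within set A and 0.02 over summed units without low Col1a1, and in comparison 3 0.02 within set C. Krit1 in comparison 3 was -0.02 (minimum count 50), -0.05 (without low Col1a1), -0.11 and -0.05 (sets B and C), -0.03 (endothelial score) and -0.09 (set, without low Col1a1). Heg1 in comparison 2 was 0.03 and 0.01 without low Col1a1, over libraries and over summed units. Klf4 in comparison 1 was -0.11 within set C. No called difference of the 9 genes reversed. The TEC share, the fits that join the low Col1a1 exclusion with summing or with the library set, and leaving out single units were chosen after seeing the data. No paired analysis by replicate number was possible because the labels give each library its own tumour number.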

Other observations

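Where Krit1 and Stk24 were called, the called genes around them differed in the direction of that gene. Those around Heg1, Klf2 and Klf4 differed in both directions between the mutant groups, and genes around Ccm2 were called where Ccm2 was not. This was looked at after the values of the 9 genes were seen, and no test of the neighbourhoods was made. Of 20 other tested genes that start within 1 Mb of Krit1 on chromosome 5, 4 were lower and 0 higher in p53R172H/fl against p53fl/fl, and 4 lower and 0 higher in p53R245W/fl, beside 2.29% and 7.82% of all genes called lower. Their median changes were -0.30 and -0.36 beside -0.40 and -0.38 for Krit1 itself and -0.02 and 0.04 over all genes. Of 13 tested genes around Stk24 on chromosome 14, 4 were higher and 0 lower in p53R245W/fl against p53fl/fl, with a median of 0.34, and 6 higher and 0 lower against p53R172H/fl, with a median of 0.53, beside 10% and 18.2% of all genes called higher. Stk24 itself stood at 0.49 and 0.67. Around Ccm2, which was at 0.05 in p53R245W/fl against p53fl/fl and not called, 7 of 30 were higher and 0 lower, with a median of 0.26. All genes had 10% called higher and 7.82% lower in that comparison. Around Heg1, 2 of 17 were higher and 2 lower in p53R245W/fl against p53fl/fl, and around Klf2 4 of 55 were higher and 10 lower in that comparison. Between the mutant groups, where Heg1 and Klf2 were called lower, 3 of 17 around Heg1 were higher and 3 lower. Around Klf2 15 of 55 were higher and 8 lower there, beside 18.2% and 12.7% of all genes. Klf4, also called lower there, had 1 of 4 higher and 2 lower around it, with a median of -0.62. In p53R172H/fl against p53fl/fl, where Heg1 was called higher, 0 of 17 around it were called (median 0.06). Stk26 was called higher in both p53R245W/fl comparisons. Of 5 genes around it, 0 were called against p53fl/fl (median 0.25). Against p53R172H/fl 1 was higher and 0 lower (median 0.6).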
